A study of Mus musculus with 8 samples.

Results

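The regulators of lipid synthesis built around SREBP, ChREBP and LXR were examined in the brown adipose tissue (BAT) of mice that underwent thoracic aortic constriction (TAC), which narrows the aorta and loads the left ventricle, or sham surgery (Sham). They are 10 genes, namely Srebf1, Srebf2, Mlxipl, Mlx, Insig1, Insig2, Scap, Nr1h2, Nr1h3 and Pnpla3. They were represented by every array probe whose RefSeq transcript belongs to one of these genes, which gave 15 probes of 55681 on the array, or 10 genes of the 21154 that could be named. Expression was measured on one-colour Agilent microarrays, where the brightness of a spot follows the amount of one transcript. All animals were male C57BL/6NCrSlc mice, operated on at 11 weeks of age, with 4 mice and 4 arrays per group by the labels. The age at collection, 13 weeks, and the source name put the tissue at 2 weeks after surgery, while the description line of the same samples says 4 weeks.

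Scanner values were used for 3 Sham arrays (replicates 2 to 4) and 4 TAC arrays, and Sham replicate 1 was taken from the deposited value table, which covers 8 arrays. Between 54.5% and 64.3% of the 59305 spots were well above background, and the small number of arrays limits the precision of every value. All 7 arrays came from 1 slide, with Sham in row 1 and TAC in row 2, so the row on the slide and the operation cannot be told apart. TAC replicate 1 stood apart from the other arrays, at 89.6 on the leading principal component (39.3% of the variance), where the other 6 arrays lay between -32.6 and 3.58. The values of the regulators are therefore also given without it. The labelled tissue was checked against its markers: Ucp1, the proton channel of heat production, and Cidea, a lipid droplet protein of brown adipocytes, were both well above background on 7 of 7 arrays.

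SREBP proteins, encoded by Srebf1 and Srebf2, are made as precursors in the membrane of the endoplasmic reticulum. SCAP escorts them to the Golgi for cleavage when sterols are low, and the INSIG proteins hold SCAP back when sterols are plentiful. ChREBP, encoded by Mlxipl, binds DNA together with MLX and responds to glucose, and the liver X receptors LXRα (Nr1h3) and LXRβ (Nr1h2) respond to oxysterols and induce Srebf1. Brown fat synthesises fatty acids as well as burning them, and these factors control the enzymes of that synthesis.

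None of the 10 regulators passed an adjusted p of 0.05 between TAC and Sham (limma, Benjamini-Hochberg over the 33364 probes tested), and neither did any other probe, the smallest adjusted p being 0.0575. All 10 had a lower mean after TAC, where 55.8% of all probes tested had one, and their median difference was -0.25 on the log2 scale, where that of all probes was -0.032. All 15 probes were well above background on 7 of 7 arrays, and 13 of 15 had a lower mean after TAC, against the same 55.8%. Every TAC array lay below every Sham array for 4 of 10 regulators, Mlx, Insig2, Nr1h2 and Pnpla3, and 10.4% of all probes tested were separated in that direction. These 4 regulators followed nearly the same pattern over the 7 arrays (Pearson's r 0.95 to 0.99 between them). They are therefore not independent observations. No regulator was separated the other way, against 5.59% of all probes. At an unadjusted p under 0.05 only 1 of 10, Insig2, was lower, which is near the 8.43% of all probes, and 0 were higher, against 4.38%. In whole tissue, fewer cells that express a gene and less of its RNA per cell cannot be told apart.

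TAC replicate 1 was the lowest of the 7 arrays for 9 of 10 regulators, the exception being Srebf2. This array stood apart over all probes, and the share of all probes for which it was lowest was not taken. Without TAC replicate 1 the median difference of the regulators was -0.19, where that of all probes was -0.016. Of the regulators 9 of 10 were then lower, for which the share of all probes was not taken. The same number as before, 4 of 10, were separated downwards, against 12.6% of all probes, and 0 of 10 upwards, against 8.48%. In the value table, where Sham replicate 1 joins, 2 of 10 were separated downwards, Mlx and Pnpla3, against 6.29% of all probes, and 0 upwards, against 3.53%. In that table without TAC replicate 1, 2 of 10 were separated downwards, against 8.25%, and 0 upwards, against 5.34%.

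**Figure D1:**
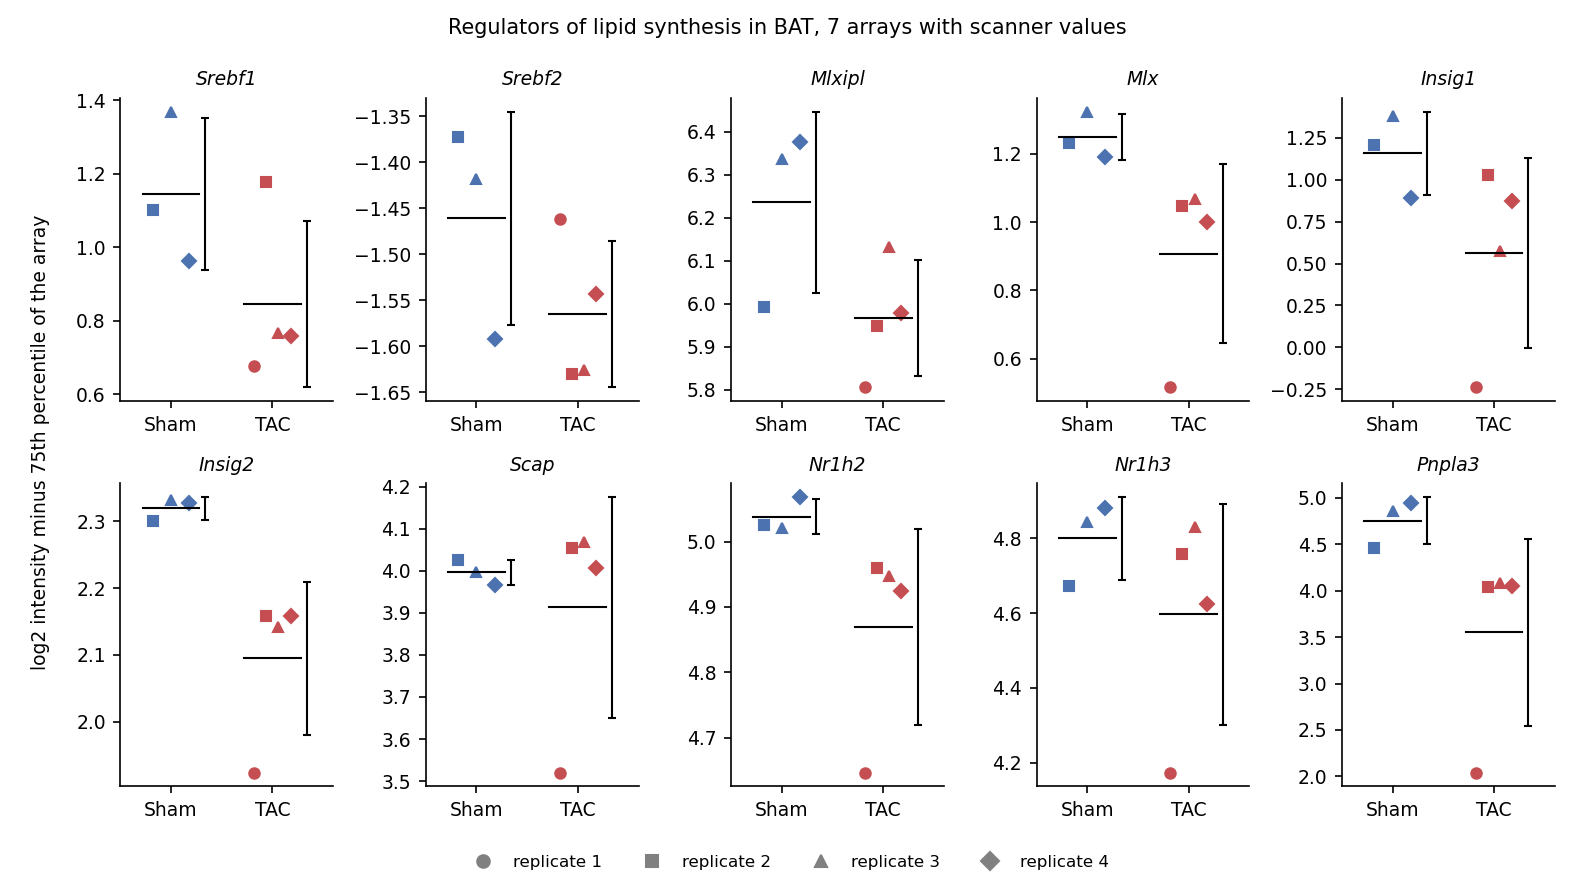
Log2 intensity of the representative probe of each regulator, minus the 75th percentile of its array, on 3 Sham and 4 TAC arrays. Symbols mark the replicate number, horizontal lines the group means and bars the SD. The TAC replicate 1 circle is the lowest point in 9 of 10 panels, and the groups do not overlap for Mlx, Insig2, Nr1h2 and Pnpla3.

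Values below are log2 intensities relative to the 75th percentile of the array, and they can be compared between arrays for one probe but not between probes. They are listed in the order of Sham replicates 2 to 4 and TAC replicates 1 to 4. Where a gene had several probes, the brightest one represents it and the others are given beside it.

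Among the factors themselves, Srebf1 encodes SREBP-1, whose SREBP-1c form drives fatty acid synthesis. It measured 1.1, 1.37 and 0.96 in Sham and 0.68, 1.18, 0.77 and 0.76 in TAC. TAC replicate 2 lay among the Sham arrays and the other 3 TAC arrays below them. The difference was -0.30 ± 0.16 (SE, 95% confidence interval -0.67 to 0.07, limma adjusted p = 0.462), or -18.8% in intensity, and it was -0.24 without TAC replicate 1. With Sham replicate 1, the brightest Sham array for this probe in the value table, the difference was -0.39 (limma adjusted p = 0.305, unadjusted p = 0.0302).

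Srebf2 encodes SREBP-2, the main activator of cholesterol synthesis. It measured -1.37, -1.42 and -1.59 in Sham and -1.46, -1.63, -1.63 and -1.54 in TAC. The groups overlapped and differed by -0.10 ± 0.09 (SE, limma adjusted p = 0.65). Its dimmer probe, A_55_P2000487, went the other way, with -3.18, -3.52 and -3.26 in Sham and -2.10, -3.44, -3.37 and -2.95 in TAC. That difference was 0.35 ± 0.32 (SE, limma adjusted p = 0.658), and 0.07 without TAC replicate 1, its brightest array.

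Mlxipl encodes ChREBP, the glucose-responsive factor. It measured 5.99, 6.34 and 6.38 in Sham and 5.81, 5.95, 6.13 and 5.98 in TAC. TAC replicate 3 lay above the lowest Sham array, and the means differed by -0.27 ± 0.13 (SE, 95% confidence interval -0.57 to 0.04, limma adjusted p = 0.439), or -0.21 without TAC replicate 1. Its second probe, A_55_P2045158, gave another value. It measured between 3.46 and 3.59 in Sham and between 3.49 and 3.57 in TAC, with a difference of 0.0027 ± 0.08 (SE, 95% confidence interval -0.18 to 0.18).

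Mlx encodes the partner with which ChREBP binds DNA. It measured 1.23, 1.32 and 1.19 in Sham and 0.52, 1.05, 1.07 and 1.0 in TAC. All 4 TAC arrays lay below all 3 Sham arrays, with TAC replicate 1 far below the others. The difference was -0.34 ± 0.15 (SE, 95% confidence interval -0.70 to 0.01, limma adjusted p = 0.402), or -21.1% in intensity. Without TAC replicate 1 it was -0.21 (95% confidence interval -0.39 to -0.03, limma adjusted p = 0.336). In the value table Mlx stayed separated with Sham replicate 1 included, at 1.27 to 1.51 in the 4 Sham arrays and 0.70 to 1.25 in the 4 TAC arrays.

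Of the proteins that hold SREBP back or move it, Insig1 encodes the anchor that is itself induced by SREBP. It measured 1.21, 1.38 and 0.89 in Sham and -0.24, 1.03, 0.58 and 0.87 in TAC. TAC replicate 2 lay within the Sham range, and TAC replicate 1 lay furthest from it. The difference of -0.60 ± 0.31 (SE, 95% confidence interval -1.32 to 0.13, limma adjusted p = 0.46) was -0.33 ± 0.17 (SE) without that array. The value table gave -0.70 over 8 arrays (limma adjusted p = 0.312, unadjusted p = 0.0329), with the highest value, 1.71, in Sham replicate 1.

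Insig2 encodes the related anchor that does not depend on SREBP for its expression. It measured 2.30, 2.33 and 2.33 in Sham and 1.92, 2.16, 2.14 and 2.16 in TAC. The groups did not overlap, and both were tight apart from TAC replicate 1. The difference was -0.22 ± 0.09 (SE, 95% confidence interval -0.44 to -0.01, limma adjusted p = 0.372, unadjusted p = 0.0411), the smallest unadjusted p of the 10 regulators, and -0.17 without TAC replicate 1. The unadjusted limma p was above 0.05 under 11 of 22 alternatives, among them the value table of 8 arrays (0.0733), the replicate block (0.111) and leaving out any single array other than TAC replicate 1 (0.0528 to 0.0982). The separation was lost with Sham replicate 1, which at 2.30 in the value table lay below the other Sham arrays (2.51 to 2.52) and below TAC replicates 2 to 4 (2.32 to 2.34). The dimmer probe A_55_P1957624 measured 0.64 to 0.83 in Sham and 0.32 to 0.72 in TAC, overlapping, with a difference of -0.17 ± 0.12 (SE).

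Scap encodes the escort of SREBP. It measured 4.03, 4.00 and 3.97 in Sham and 3.52, 4.06, 4.07 and 4.01 in TAC. The groups overlapped apart from TAC replicate 1, the lowest array, and the difference of -0.08 ± 0.15 (SE, limma unadjusted p = 0.591) became 0.05 ± 0.07 (SE) without that array.

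Of the liver X receptors, Nr1h2, which encodes LXRβ, measured 5.03, 5.02 and 5.07 in Sham and 4.65, 4.96, 4.95 and 4.92 in TAC. All TAC arrays lay below the Sham arrays, by a small margin except in TAC replicate 1. The difference was -0.17 ± 0.10 (SE, limma adjusted p = 0.512), or -0.09 without that array. In the value table Sham replicate 1, at 5.13, lay below TAC replicate 2, at 5.14, and the groups overlapped.

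Nr1h3 encodes LXRα, the form that is abundant in liver, fat and macrophages. It measured 4.67, 4.84 and 4.88 in Sham and 4.17, 4.76, 4.83 and 4.63 in TAC. The groups overlapped, and the difference of -0.20 ± 0.17 (SE, limma adjusted p = 0.625) was -0.06 without TAC replicate 1. Its second probe, A_55_P2128597, measured 3.87 to 4.09 in Sham and 3.39 to 4.13 in TAC, with a difference of -0.12 ± 0.19 (SE) that became 0.05 without that array.

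Pnpla3, a lipid droplet protein and lipase-like enzyme, is a target of SREBP-1c and ChREBP. It measured 4.46, 4.86 and 4.94 in Sham and 2.04, 4.04, 4.08 and 4.05 in TAC. TAC replicates 2 to 4 lay close together below the Sham arrays, and TAC replicate 1 lay far below both. The difference was -1.20 ± 0.52 (SE, 95% confidence interval -2.42 to 0.02, limma adjusted p = 0.396), or -56.5% in intensity. Without TAC replicate 1 it was -0.70 ± 0.14 (SE, 95% confidence interval -1.03 to -0.36, limma adjusted p = 0.192, unadjusted p = 0.00223).

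In the value table Pnpla3 measured 4.46 to 5.13 in the 4 Sham arrays and 2.23 to 4.27 in the 4 TAC arrays, again without overlap. Its dimmer probe, A_51_P389265, did not separate the groups. It measured 0.41, 0.34 and -0.07 in Sham and -0.26, 0.47, -0.38 and 0.41 in TAC, a difference of -0.17 ± 0.25 (SE, limma adjusted p = 0.798).

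**Figure D2:**
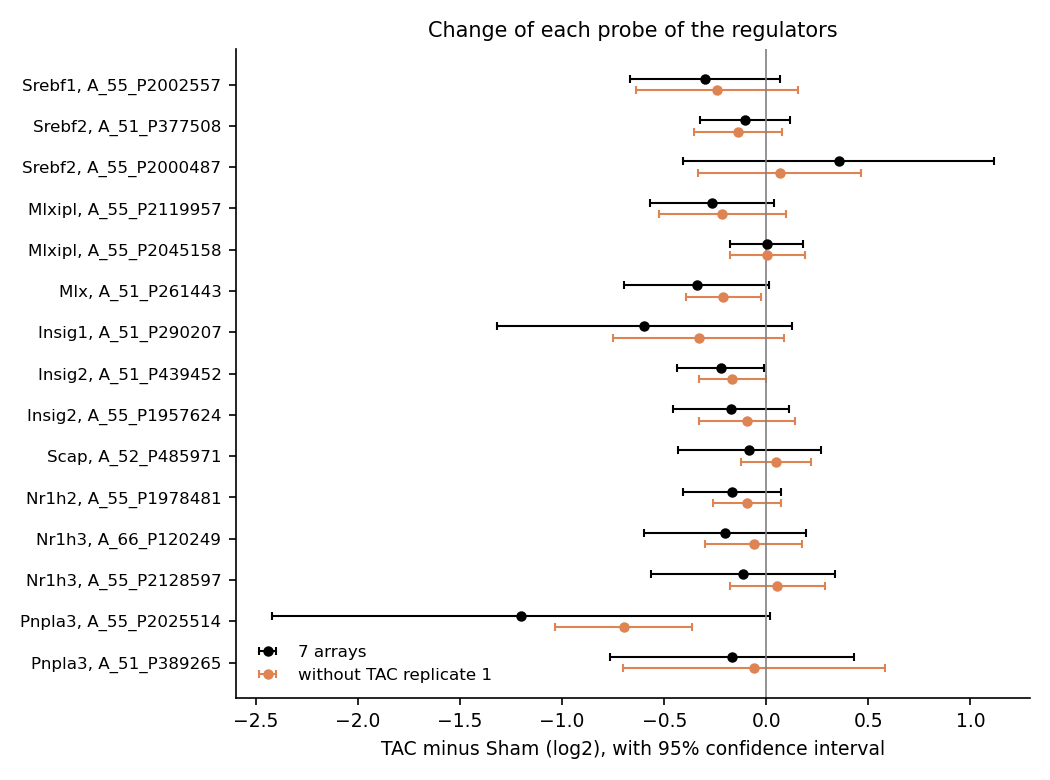
Difference between TAC and Sham (log2, horizontal axis) for each of the 15 probes, with 95% confidence intervals from limma, over 7 arrays (black) and without TAC replicate 1 (orange). Most black points lie left of 0 with wide intervals, and the Pnpla3 probe A_55_P2025514 moves from -1.20 to -0.70.

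**Figure D3:**
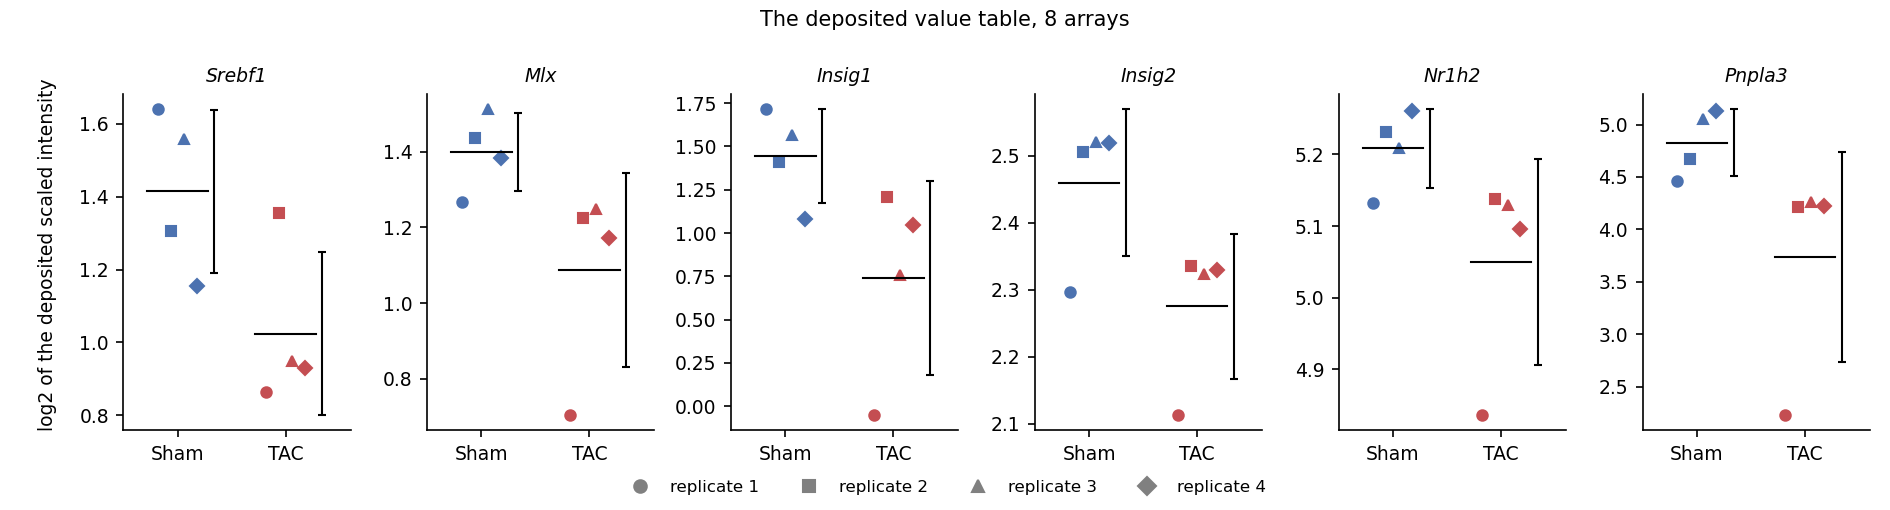
Log2 of the deposited scaled intensity for 6 regulators on all 8 arrays, with group means as lines and SD as bars. The Sham and TAC points of Mlx and Pnpla3 do not overlap. For Insig2 and Nr1h2 Sham replicate 1 (circle) lies within the TAC range.

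The starts of Pnpla3 and Mlx are shown because these were the regulators separated in both files. That of Mlxipl is shown because it held the only exact match among the regulators to the letters searched for the sterol regulatory element. Each sequence is the 250 bases before the start of transcription in RefSeq (GRCm38.p6), 5′ to 3′ on the strand of the gene. Pnpla3 lies at chr15:84167566-84167815, Mlx at chr11:101087040-101087289 and Mlxipl, at one of its starts, at chr5:135106641-135106890, all on the plus strand. Capitals mark the matches.
Pnpla3: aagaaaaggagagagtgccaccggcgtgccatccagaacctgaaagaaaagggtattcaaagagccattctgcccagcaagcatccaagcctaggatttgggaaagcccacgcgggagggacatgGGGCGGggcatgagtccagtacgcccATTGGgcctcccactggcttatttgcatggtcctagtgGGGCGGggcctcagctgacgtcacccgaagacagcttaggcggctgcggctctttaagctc
Mlx: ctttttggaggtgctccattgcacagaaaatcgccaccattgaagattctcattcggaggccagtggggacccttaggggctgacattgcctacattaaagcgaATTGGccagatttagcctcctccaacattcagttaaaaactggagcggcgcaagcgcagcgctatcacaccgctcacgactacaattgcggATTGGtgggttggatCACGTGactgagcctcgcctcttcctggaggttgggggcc
Mlxipl: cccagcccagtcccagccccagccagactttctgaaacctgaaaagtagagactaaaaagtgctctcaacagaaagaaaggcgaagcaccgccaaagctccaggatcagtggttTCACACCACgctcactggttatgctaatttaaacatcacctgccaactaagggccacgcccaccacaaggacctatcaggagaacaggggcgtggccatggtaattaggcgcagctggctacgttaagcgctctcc
The letters searched on both strands were TCACNCCAC for the sterol regulatory element bound by SREBP, CACGTG for the E-box, ATTGG for the inverted CCAAT box of NF-Y, GGGCGG for the GC box of Sp1 and, by name, the direct repeat bound by LXR. In Pnpla3 the capitals are GC boxes that begin 125 and 61 bases before the start and an inverted CCAAT box that begins 99 bases before it. In Mlx they are an E-box 40 bases before the start and inverted CCAAT boxes 146 and 55 bases before it. In Mlxipl the sterol regulatory element begins 136 bases before the start. None of the matches shown overlaps another.

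All 10 regulators had entries in the promoter table, with 17 windows of 300 bases in all. The sterol regulatory element occurred in 1 of 17, against 1.24% of 32851 mouse windows, and the E-box in 5 of 17, against 7.15%. The inverted CCAAT box occurred in 8 of 17, against 37.4%, and the GC box in 10 of 17, against 35.7%. The LXR repeat, searched as an exact pattern of 16 letters, occurred in 0 of 17, against 0.0152%. These are exact matches of letters in windows of which several overlap or belong to one gene. Variant forms of the elements were not searched, so a window without a match is not shown to lack the element.

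To ask whether TAC moved related regulators unequally, the difference between the probes of a pair was taken within each array and its group means were compared by exact permutation of the 7 arrays (two-sided, 35 splits, smallest possible p 0.0286). Srebf1 minus Srebf2 differed between TAC and Sham by -0.20 on the log2 scale (exact p = 0.314, adjusted over 4 pairs 0.628). For Insig1 minus Insig2 it was -0.37 (exact p = 0.257, adjusted 0.628). For Mlxipl minus Mlx it was 0.07 (exact p = 0.657, adjusted 0.8), and for Nr1h3 minus Nr1h2 it was -0.035 (exact p = 0.8, adjusted 0.8). Unequal change was thus not shown for any of the 4 pairs, and the last 2 differences changed sign without TAC replicate 1, to -0.0039 and 0.032.

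The genes that these regulators act on or depend on were described in 6 lists, none of which held a gene at an adjusted p under 0.05. Like the regulators, the lists were chosen with earlier results of these data known. Their counts beside the shares of all probes are a description and not a test. Of the targets of SREBP-1c and ChREBP in fatty acid synthesis, 14 of 15 measured genes were lower after TAC, against 55.8% of all probes, with a median difference of -0.87, and 11 of 15 were separated downwards, against 10.4% of all probes. At an unadjusted p under 0.05, 11 of 15 were lower, against 8.43% of all probes. Acss2, which makes acetyl-CoA from acetate, measured 5.09, 5.76 and 5.39 in Sham and 3.35, 4.01, 3.62 and 3.85 in TAC, a difference of -1.71 ± 0.21 (SE, limma adjusted p = 0.196). Acly, which makes acetyl-CoA from citrate, differed by -1.88 ± 0.28 (SE, limma adjusted p = 0.196). Acaca, the carboxylase that makes malonyl-CoA, differed by -1.72 ± 0.27 (SE, limma adjusted p = 0.196). Without TAC replicate 1 the median of the list was -1.02, whereas that of the regulators was -0.19.

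Of the SREBP-2 targets in sterol synthesis and uptake, 17 of 22 were lower after TAC, against 55.8% of all probes, with a median of -0.24. Of these targets 11 of 22 were separated downwards, against 10.4% of all probes, and 10 of 22 were lower at an unadjusted p under 0.05, against 8.43%. Nsdhl, an enzyme that removes a methyl group from sterol precursors, measured 1.17, 1.12 and 0.86 in Sham and -0.32, 0.14, -0.38 and 0.11 in TAC, a difference of -1.16 ± 0.17 (SE, limma adjusted p = 0.196). Fdps, which makes farnesyl diphosphate, differed by -1.11 ± 0.16 (SE), and Idi1, the isopentenyl diphosphate isomerase, by -0.81 ± 0.15 (SE). For these 3 enzymes all TAC arrays lay below all Sham arrays in both files, while Srebf2 itself overlapped. Without TAC replicate 1 the median of the list was -0.22.

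The medians of the remaining lists lay between -0.10 and 0.05. Of the genes for SREBP processing and turnover 9 of 12 were lower, against 55.8% of all probes, with a median of -0.10 that became -0.05 without TAC replicate 1. Erlin2, part of the complex that carries INSIG-bound reductase to degradation, was separated downwards at -0.35 ± 0.11 (SE, limma adjusted p = 0.295), as was the deubiquitinase Usp20 at -0.19 ± 0.10 (SE). Fbxw7, the ubiquitin ligase subunit that marks nuclear SREBP for degradation, was separated upwards at 0.20 ± 0.09 (SE, limma adjusted p = 0.441). Of the co-factors of SREBP, 5 of 11 were lower, against 55.8% of all probes, and 6 of 11 higher, with a median of 0.014. No co-factor was separated downwards, against 10.4% of all probes, or upwards, against 5.59%. Nfya, a subunit of NF-Y, differed by 0.23 ± 0.12 (SE), Med15 of the Mediator complex by 0.15 ± 0.11 (SE) and Usf2, an E-box factor, by -0.16 ± 0.19 (SE), which became 0.017 without TAC replicate 1.

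Of the ChREBP partners and targets outside lipogenesis, 5 of 10 were lower, against 55.8% of all probes, and 5 of 10 higher. Their median was 0.03 and became -0.058 without TAC replicate 1. Klf10, a glucose-induced repressor, measured 2.73, 2.00 and 2.17 in Sham and 0.73, 1.81, 1.46 and 0.87 in TAC. It was the separated gene of this list in the scanner values, 1 of 10 against 10.4% of all probes, at -1.08 ± 0.30 (SE, limma adjusted p = 0.27). Arrdc4, an arrestin-like target of ChREBP, differed by -0.73 ± 0.21 (SE), with overlap and with its other probe in the opposite direction. Slc2a4, the insulin-responsive glucose transporter, differed by -0.24 ± 0.11 (SE), with overlap in the scanner values. In the value table of 8 arrays Slc2a4 was separated downwards, as was Klf10, so that 2 of 10 were, against 6.29% of all probes.

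Of the LXR partners and targets, 4 of 12 were lower, against 55.8% of all probes, and 8 of 12 higher, with a median of 0.05. Apoe, the apolipoprotein of cholesterol efflux, measured 8.14, 8.11 and 8.25 in Sham and 9.18, 8.62, 8.79 and 8.53 in TAC. It was separated upwards in both files, at 0.61 ± 0.16 (SE, limma adjusted p = 0.249). Pltp, the phospholipid transfer protein, was separated downwards at -0.23 ± 0.08 (SE, limma adjusted p = 0.324), and Lpcat3, which builds polyunsaturated phospholipids, at -0.36 ± 0.13 (SE, limma adjusted p = 0.345), although Lpcat3 overlapped in the value table.

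**Figure D4:**
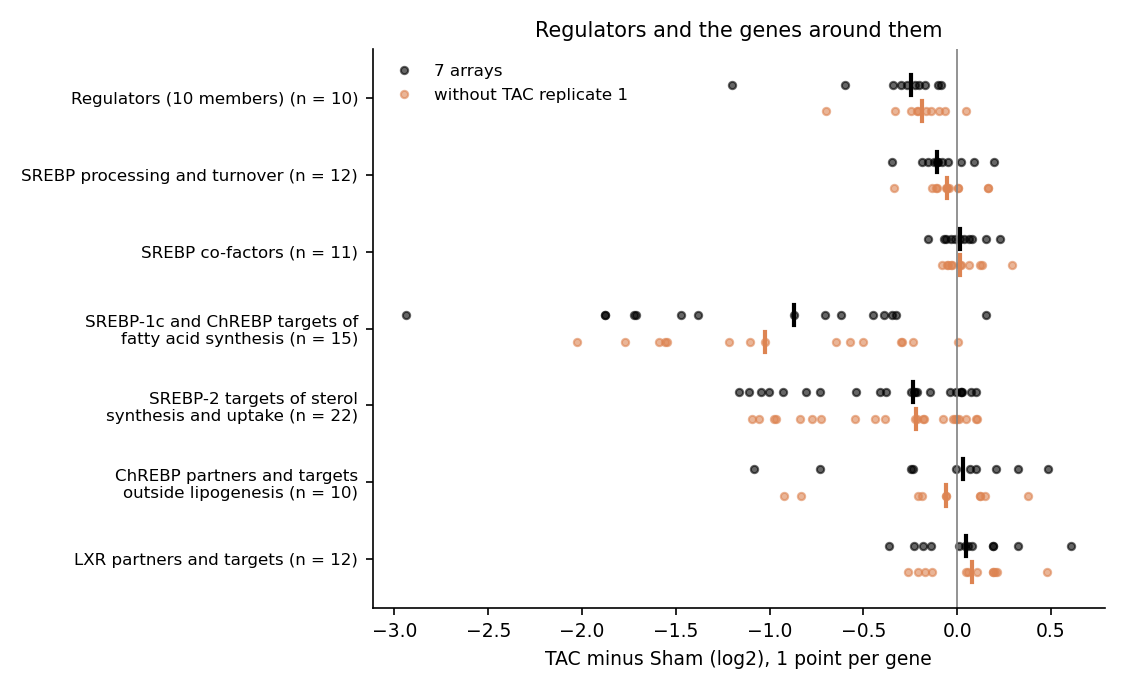
Difference between TAC and Sham (log2, horizontal axis), 1 point per gene, for the regulators and the 6 lists around them, over 7 arrays (black) and without TAC replicate 1 (orange), with vertical bars at the medians. The fatty acid synthesis targets are centred at -0.87 and the SREBP-2 targets at -0.24, while the medians of the other 4 lists lie between -0.10 and 0.05.

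Cell type markers also differed between arrays. The summed intensity of 10 brown adipocyte markers, relative to the 75th percentile of the array, was 4140 to 5010 in Sham and 3320 to 4370 in TAC, with the lowest value in TAC replicate 1. In this and the sums below the brightest probes weigh most, so a change in a dim marker can go unseen. Ucp1 differed by -0.61 ± 0.22 (SE, limma adjusted p = 0.336) and Cidea by -0.11 ± 0.14 (SE). The sum of 10 macrophage markers was 71.6 in TAC replicate 1, against 41.7 to 44.5 in Sham and 35.1 to 42 in the other TAC arrays. Cd68, a lysosomal protein of macrophages, was at 2.54 there, at 0.77 to 1.17 in Sham and at 0.28 to 0.65 in TAC replicates 2 to 4. Adgre1, which defines macrophages, was at 0.76 there, at -0.95 to -0.34 in Sham and at -1.27 to -1.10 in TAC replicates 2 to 4. The macrophage markers were thus highest on TAC replicate 1 by their sum, while without it their median difference was -0.33 and 4 of 10 were separated downwards, against 12.6% of all probes. The part of these cells in the regulators' values, with or without TAC replicate 1, was not tested.

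All 10 skeletal muscle markers had a higher mean after TAC, where 55.8% of all probes tested had a lower one. The median difference of these markers was 1.02, or 0.81 without TAC replicate 1. None of the 10 markers was separated upwards, against 5.59% of all probes, or downwards, against 10.4%. Their sum was 44.3, 158 and 79.9 in Sham and 255, 201, 56.2 and 260 in TAC. TAC replicates 1, 2 and 4 lay above the Sham arrays and TAC replicate 3 within their range. Acta1 (1.0 ± 0.68, SE) and Ckm (1.16 ± 0.68, SE), the muscle forms of actin and creatine kinase, were well above background on 7 of 7 arrays, and the part of muscle in the regulators' values was not tested. Endothelial markers summed to 29.5 to 31.7 in Sham and 29.4 to 32.3 in TAC, with Pecam1 and Cdh5 overlapping. Erythroid markers summed to 378 to 658 in Sham and 312 to 525 in TAC, where Hba-a1 and Hbb-b1 overlapped. White adipocyte markers summed to 24.7 to 31.4 in Sham and 24.2 to 39.8 in TAC, with Lep overlapping and Hoxc8 well above background on 3 of 7 arrays. Of 8 lymphocyte markers 4 were tested, and Cd79a, part of the B-cell receptor, was well above background on 1 of 7 arrays. The 4 tested markers summed to 8.29 to 8.56 in Sham and 8.19 to 8.89 in TAC. Their mean log2 difference from the Sham mean was 0.74 on TAC replicate 1. It was -0.16 to 0.08 in Sham and -0.31 to -0.05 on TAC replicates 2 to 4.

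The genes whose pattern over the 7 arrays was most like that of Insig2, out of 14975 genes compared, were Scd3 (Pearson's r = 0.998), Pgap6 (0.997) and Scd1 (0.997), of which Scd1 and Scd3 encode stearoyl-CoA desaturases. For Srebf1 they were Gstm1 (0.989), Prox2 (0.987) and Gab3 (0.98). These coefficients are a description of 7 arrays that share a slide, and for Insig2 they rest in part on TAC replicate 1, its lowest array. Scd1 differed by -0.87 and Scd3 by -1.32 between TAC and Sham, neither past the threshold (limma adjusted p = 0.269 and 0.249).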

How the data were processed

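BAT RNA of 8 mice was hybridised, after labelling with Cy3, to one-colour arrays that the authors extracted with Agilent Feature Extraction 10.7.1.1, per the submitters' processing notes. The deposited scanner files of 7 arrays hold background-subtracted intensity on a linear scale. The deposited value table of 8 arrays holds the intensity divided by a constant of each array (at least 99.8% of values above 100 units within 1% of that), near the 75th percentile. How it was made is not given in the sources used here. The array was designed on mm9, so probes have no coordinates here.

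Intensities were converted to log2 after deposit, the log2 of the array's 75th percentile over 59305 spots was subtracted, spots marked as outliers (134 to 191 per array) were left out, saturated spots (at most 1) were kept, and spots of one probe were averaged. A probe was tested if well above background on at least 3 of 7 arrays and measured on at least 2 per group. The groups were compared in R 4.3.3 with limma 3.58.1 (lmFit, eBayes), adjusted by Benjamini-Hochberg over 33364 probes, and the procedure was tested on simulated data. RefSeq accessions, matched without versions to a GRCm38.p6 table, named 28026 of 55681 probes (50.3%). No column of the table lacked a sample (0).

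The labels call the 8 samples independent, with 1 array each, so p-values measure the spread between mice and arrays together. These arrays are not described in the text of the paper. The regulators and the gene lists were chosen with earlier results of these data known. The genes named are the 10 regulators, the 3 members of each list with the smallest p, the first 2 markers of each cell type (1 of which is not reported here), and the 3 genes most like Insig2 (the regulator with the smallest p) and Srebf1. Alternatives were normexp with an offset of 50 (on median signals, the files having no mean signal), median centring, quantile normalization, the value table of 8 arrays, of 7 and without TAC replicate 1, other filters, outlier spots kept, an intensity trend, array weights, the methods' t-test, the replicate block, each array left out, and the mean of a gene's probes. Counts of separated genes without TAC replicate 1 or with Sham replicate 1 were added after seeing the data.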

Additional observations from a re-analysis of the deposited data

Results flagged for a closer look

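Within a group of 4 arrays, a lone array was marked where its gap to the nearest other array took most of the range of the group, a mark that chance gives in about 1 in 20 groups. It was met in 6 of 30 groups over the 15 probes, 5 of them in TAC with TAC replicate 1 the lone array each time, and 1 in Sham. These groups share the same arrays and are not independent, so the count cannot be set against 1 in 20 as a test. TAC replicate 1 stood apart over all probes, and the share of all probes with this mark was not taken. The gap took 0.875 of the range for Mlx, 0.928 for Insig2, 0.887 for Scap, 0.887 for Nr1h2 and 0.977 for Pnpla3, each at the brightest probe. Pnpla3 stood at 2.04 there against 4.04 to 4.08 on TAC replicates 2 to 4, and Scap at 3.52 against 4.01 to 4.07. The group in Sham was Insig2 in the value table, where Sham replicate 1 at 2.30 lay below 2.51 to 2.52 and the gap took 0.932 of the range. The summed macrophage markers were also highest, and the brown adipocyte markers lowest, on TAC replicate 1, and their part in these values was not tested.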

How the results depend on the processing

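Over 22 other fits, 308 of 325 values of the 15 probes kept their direction, and the brightest probes of Srebf1, Mlxipl, Mlx, Insig1, Insig2, Nr1h2, Nr1h3 and Pnpla3 were lower after TAC in each. The cause of the changes below was not tested. Regulators lower at an unadjusted p under 0.05 numbered 1 as reported, and the share of all probes is given in brackets for the other fits. They numbered 4 with normexp (8.06%), an intensity trend (8.76%), array weights (9.46%), the value table of 8 arrays (9.56%) and the replicate block on it (10.4%). With the value table of the same 7 arrays (9.68%) and the filter that requires every array (8.83%) there were 3. There were 2 with median centring (9.21%), quantile normalization (8.43%) and the value table without TAC replicate 1 (8.64%). The count was 0 without a filter (6.05%) or with the mean of a gene's probes, where no share was taken. Leaving out single arrays gave 0 to 3, with the shares given below. It gave 3 without TAC replicate 1 and 0 without Sham replicate 3, Sham replicate 4 or TAC replicate 4. Separated regulators numbered 2 in the value table with TAC replicate 1, against 6.29% of all probes, and 2 without it, against 8.25%. Arrays numbered 2 to 4 did not deviate together (correlations of deviations from group means 0.002, -0.026 and -0.021 in the scanner values and 0.02, 0.056 and 0.02 in the value table), while those numbered 1 gave 0.269 in the value table. Since not every number did, the numbers were not taken as pairs. On 7 arrays the replicate block leaves TAC replicate 1 without a Sham partner. Its differences therefore equal those without that array, as for Pnpla3 at -0.70 in both. In that fit 1 regulator, Pnpla3 (limma unadjusted p = 0.00498) in place of Insig2 (0.111), was lower at an unadjusted p under 0.05. Over all probes 2481 (7.44%) were lower at that threshold and 1344 higher.

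Among the reversed values, the second Mlxipl probe gave -0.016 with normexp, -0.027 with median centring, -0.012 with the table of 7 arrays, -0.0081 with array weights and -0.025 to 0.038 when single arrays were left out. Scap gave 0.036 in the value table without TAC replicate 1, 0.0084 with array weights, 0.047 with the replicate block and -0.14 to 0.047 when single arrays were left out. The second Nr1h3 probe gave 0.055 in the value table without TAC replicate 1, 0.053 with the replicate block and -0.19 to 0.053 when single arrays were left out. The second Srebf2 probe gave -0.018 in that table, Srebf2 averaged over its probes 0.12, and the second Pnpla3 probe 0.0024 with array weights. Mlxipl minus Mlx gave -0.016 in that table, -0.0039 with the replicate block and -0.04 to 0.17 when single arrays were left out. Nr1h3 minus Nr1h2 gave, in the same order, 0.034, 0.032 and -0.092 to 0.032, and 0.009 with averaged probes.

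Of the lists, the co-factor median was 0.065 with quantile normalization, -0.032 in the value table with or without the replicate block, and -0.022 to 0.046 when single arrays were left out. The processing median was -0.023 in the value table without TAC replicate 1. The median of the other ChREBP genes was -0.10 there, -0.058 with the replicate block and -0.058 to 0.058 when single arrays were left out, with 4 lower at an unadjusted p under 0.05 under normexp or an intensity trend, 1 with averaged probes and 2 to 4 when single arrays were left out, and 2 separated in the value table or without TAC replicate 1 and 3 without it in that table. The LXR median was 0.11 with array weights and -0.0068 to 0.091 when single arrays were left out, with 1 lower under the replicate block and 0 to 2 when single arrays were left out. Processing genes numbered 0 to 1. The shares of all probes in these fits, where taken, are those given with the regulators above and for single arrays below. Over all probes, 1 was lower at an adjusted p under 0.05 with normexp, median centring or array weights, and leaving out single arrays gave 0 to 1 lower and 0 to 7 higher, and 1602 to 2995 (4.8% to 8.98%) lower and 893 to 1562 higher at an unadjusted p under 0.05. Without Sham replicate 3 these were 1602 and 893. The methods' t-test gave 2587 lower and 1602 higher at their threshold and 0 after Benjamini-Hochberg.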
